A study of Mus musculus with 2 samples.

Results

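The 7 genes described here, Srebf2, Insig1, Hmgcs1, Idi1, Fdft1, Sqle and Cyp51, belong to the pathway by which cells make cholesterol. They were taken by gene symbol from the 47730 features listed in each count matrix, and each symbol matched 1 feature. Of the 7, 5 encode enzymes of the pathway and 2 encode proteins that regulate it. None of them is an uptake receptor, so they are called cholesterol synthesis genes below. The members were not used to assign cells to classes. The 7 genes, and the further gene lists below, were chosen with earlier results of these data known. The shares of all genes given beside them are therefore a description and not independent support.

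RNA was measured in single cells by 10x Genomics 3′ droplet sequencing of live CD45+ cells, which are nearly all white blood cells, sorted from tumours that had been dissociated. The mice were of strain C57BL6\J, and those of both groups had undergone ovariectomy, which takes away the main source of estrogen. One group then received placebo and the other received E2, the usual abbreviation of estradiol, with 1 library each. The sources used here do not give the type of tumour, the age or number of the mice, or how much E2 was given and for how long. A single library per group says nothing of the spread between animals, so the comparison carries no test and no p-value. Every difference is one between these 2 libraries, and the 95% intervals cover counting error only.

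Cells build cholesterol from acetyl-CoA through mevalonate, isoprenoid diphosphates, squalene and lanosterol. The transcription factor SREBP-2, the product of Srebf2, is held in the endoplasmic reticulum by SCAP and the Insig proteins while sterols are plentiful, and it moves to the Golgi, is cut and enters the nucleus when sterols fall. Its targets include most enzymes of the pathway as well as Srebf2 and Insig1 themselves, so the messages of these genes are widely used as a readout of that response, and dividing cells and activated lymphocytes are known to need the pathway for membrane growth.

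Unique molecular identifiers (UMIs) each count 1 captured RNA molecule. There were 24545595 UMIs over 3505 barcodes in placebo and 52628133 UMIs over 5791 barcodes in E2. After filtering, 3393 and 5499 cells remained, of which 84.4% and 86.9% entered a class through a gate on marker genes. A class is called X-like because it rests on markers alone. The CD45 gene Ptprc had a UMI in between 62% and 100% of the cells of each class that reached 30 cells in both libraries. Its share was not computed for the other classes. The libraries shared 95 barcode sequences, and leaving those out changed the median log2 ratio of the 7 genes from -0.42 to -0.41 in monocyte/macrophage-like cells and from -0.73 to -0.75 in cDC2-like cells. Levels are the UMIs of a gene scaled to a common total of UMIs per class and library (counts per 1e6, CPM). A gene counts as measured in a class with at least 20 UMIs over both libraries, and as lower or higher past the fold where its CPM differed by at least 1.5-fold.

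Promoter sequence from RefSeq (GRCm38.p6, the assembly that mm10 names) was at hand for 5 of the 7 genes, as windows of 300 bases that begin 250 before the start site. These windows were searched on both strands for 3 motifs tied to the SREBP-2 response. They were TCACCCCA, the core letters of the sterol regulatory element that SREBPs bind, the E-box CACGTG, and CCAAT, the letters bound by NF-Y, a common partner of SREBPs. The motifs do not overlap one another. The sterol element core stood in 2 of the 5 windows, those of Hmgcs1 and Srebf2, against 1.56% of all 32851 promoters. These core letters were chosen after matches of a longer form had been seen, so the 2 of 5 is a description and not independent support. For all 3 motifs the members were counted by gene and the background by promoter. The E-box stood in 1 of the 5, that of Insig1, against 7.15% of all promoters. CCAAT stood in all 5, against 37.4% of all promoters. The 3 stretches with a sterol element core or E-box are shown, and capitals mark the match. They belong to the regulator, its retention partner and the entry enzyme. A match describes letters only, and no binding was measured at these sites. The stretches lie on the plus strand, that of Srebf2 at chr15:82147067-82147154, that of Insig1 at chr5:28071271-28071356 and that of Hmgcs1 at chr13:119690174-119690261.
Srebf2: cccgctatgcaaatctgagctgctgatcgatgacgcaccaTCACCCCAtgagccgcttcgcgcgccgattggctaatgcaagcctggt
Insig1: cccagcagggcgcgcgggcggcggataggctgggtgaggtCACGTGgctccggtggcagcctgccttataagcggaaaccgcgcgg
Hmgcs1: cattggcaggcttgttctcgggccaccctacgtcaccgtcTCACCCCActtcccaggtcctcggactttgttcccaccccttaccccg

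Dendritic cells held the highest levels of the cholesterol synthesis genes and neutrophil-like cells the lowest, among the 9 classes that reached 30 cells in both libraries. Summed over the 7 genes, the placebo level was 755 CPM (95% Poisson interval 699 to 815) in CCR7 mature dendritic-like cells, 655 (619 to 694) in cDC2-like cells and 587 (533 to 645) in cDC1-like cells. T-like cells followed at 387 (371 to 403) and monocyte/macrophage-like cells at 364 (350 to 378). Neighbouring intervals overlap between cDC2-like and cDC1-like cells and between T-like and monocyte/macrophage-like cells. Overlap alone does not decide an order, and the order of the classes was not tested. B-like cells stood at 250 CPM, mast-like cells at 206, NK-like cells at 129 and neutrophil-like cells at 69.0 in the placebo library. In the E2 library the same classes led and trailed, with 566 CPM (528 to 606) in CCR7 mature dendritic-like cells, 401 (384 to 420) in cDC1-like, 371 (354 to 388) in cDC2-like, 314 (298 to 330) in T-like and 241 (234 to 248) in monocyte/macrophage-like cells. There the order of cDC1-like and cDC2-like cells was turned around, with intervals that again overlap. The lowest E2 levels were 188 CPM in B-like, 168 in mast-like, 149 in NK-like and 56.6 in neutrophil-like cells.

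Some classes reached 30 cells in 1 library only. Plasmacytoid dendritic-like cells (64 in the E2 library) held 789 CPM (718 to 865), above every class named so far in that library. Basophil-like cells (86 in the placebo library) held 66.9 CPM (42.9 to 99.6), as low as neutrophil-like cells. Fibroblast-like cells, which a CD45+ sort should leave out, were 64 in the E2 library, held 647 CPM and shared 8 of their barcodes with the placebo library. The 17 placebo cells, 8 of them with a shared barcode, held 429 CPM. The sum of this class was thus higher in E2, at a ratio of 1.51 (1.21 to 1.89). That of plasmacytoid dendritic-like cells, 20 in placebo, was lower at 0.679 (0.574 to 0.807). Basophil-like cells, 25 in E2, had a ratio of 1.45 (0.593 to 3.23).

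**Figure D1:**
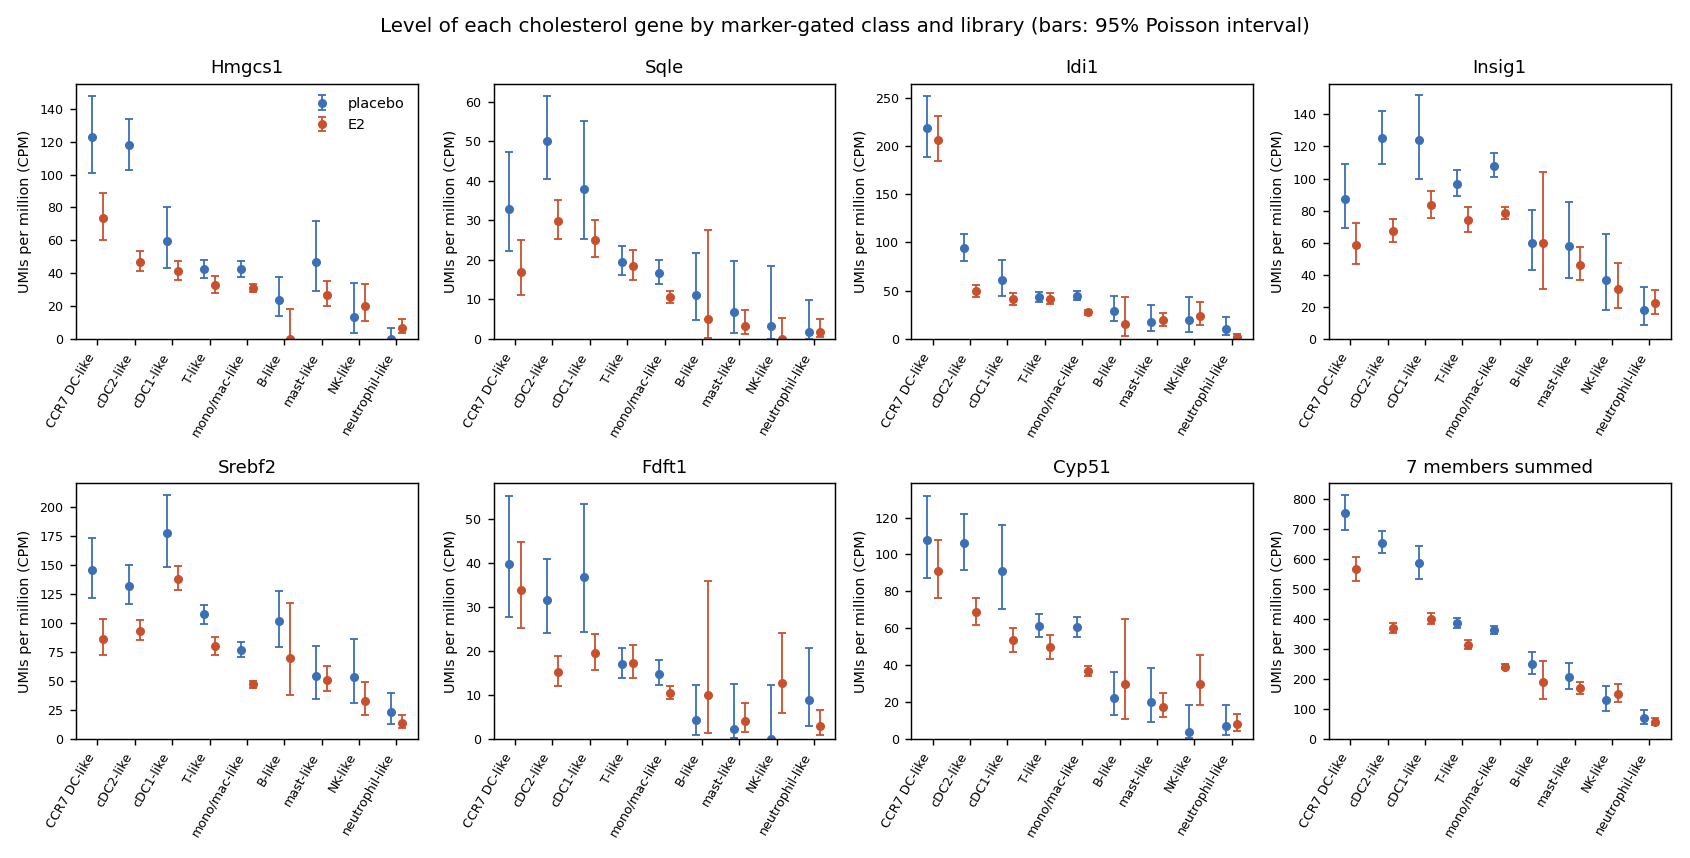
Level of each gene, and of the 7 summed, in CPM (vertical axes, each from 0) for 9 marker-gated classes (horizontal axes, ordered by the placebo sum), placebo in blue and E2 in orange, with 95% Poisson intervals as bars. The summed level ran from 755 CPM in CCR7 mature dendritic-like cells to 69.0 CPM in neutrophil-like cells of the placebo library, and the dendritic classes and monocyte/macrophage-like cells stood lower in the E2 library.

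The genes did not share 1 order of classes. Srebf2 (chr15:82147181-82205379, plus strand) was highest of the 9 classes in cDC1-like cells in both libraries, at 177 and 138 CPM in placebo and E2, and lowest in neutrophil-like cells at 23.0 and 13.6. Insig1 (chr5:28071363-28078662, plus strand), whose product retains the SCAP-SREBP complex, was spread more evenly over the 9 classes. It stood between 58.2 and 125 CPM in 7 of the 9 placebo classes, with 36.5 in NK-like and 17.7 in neutrophil-like cells. Monocyte/macrophage-like cells were at rank 3 in placebo (108 CPM) and rank 2 in E2 (78.3). Outside the 9, the 64 plasmacytoid dendritic-like cells of the E2 library held 250 CPM (211 to 295) of Insig1.

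Idi1 (chr13:8885501-8892451, plus strand), the isomerase that balances the pair of isoprenoid building blocks, set CCR7 mature dendritic-like cells apart among the 9 classes. Its level there was 219 CPM in placebo and 206 in E2, against 93.7 and 49.8 in cDC2-like cells, the next of the 9 classes in each library. Plasmacytoid dendritic-like cells, outside the 9, held 183 CPM (124 to 259) of Idi1 in 20 placebo cells and 129 (102 to 162) in 64 E2 cells. Hmgcs1 (chr13:119690379-119708260, plus strand), which makes HMG-CoA at the entry of the pathway, was highest of the 9 classes in the same mature dendritic cells at 123 and 73.3 CPM. It had 0 UMIs in the 232 placebo neutrophil-like cells, which allows up to 6.53 CPM, and 0 in the 55 E2 B-like cells, which allows up to 18.3 CPM.

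Fdft1 (chr14:63145150-63179578, minus strand), the squalene synthase that commits isoprenoids to sterols, and Sqle (chr15:59315077-59331192, plus strand), the squalene epoxidase, were the sparsest in UMIs. Fdft1 ran from 39.8 CPM in CCR7 mature dendritic-like to 0 in NK-like cells (up to 12.2 CPM) in placebo. Sqle ran from 50.1 CPM in cDC2-like to 1.77 in neutrophil-like cells in placebo, and from 29.9 to 0 in NK-like cells (up to 5.20 CPM) in E2. Cyp51 (chr5:4081145-4104746, minus strand), the lanosterol demethylase, was highest of the 9 classes in CCR7 mature dendritic-like cells, at 108 and 90.9 CPM.

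cDC2-like cells, the dendritic cells that mainly present antigen to CD4 T cells, showed the lowest summed E2 to placebo ratio among the 4 classes that had at least 100 cells in both libraries. All 7 genes were lower in the E2 library, where 61.4% of genes were lower by any amount, and 6 of the 7 were lower past 1.5-fold, against 12.8% of all 10201 genes measured in this class. The summed level was 655 CPM in the 128 placebo cells and 371 CPM in the 350 E2 cells, 1.77-fold lower (1.64 to 1.90).

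Hmgcs1 differed most in this class. It had 118 CPM in placebo and 46.8 in E2, 2.51-fold lower (2.08 to 3.03). Fdft1 went from 31.6 to 15.2 CPM, 2.09-fold lower (1.46 to 2.97). The first acts at the entry of the pathway and the second at its commitment to sterols. Idi1 stood at 93.7 CPM in placebo and 49.8 in E2, 1.88-fold lower (1.54 to 2.29). Insig1 stood at 125 and 67.1 CPM, 1.86-fold lower (1.57 to 2.20). Sqle stood at 50.1 and 29.9 CPM, 1.68-fold lower (1.28 to 2.18). Each of these intervals lies wholly on the lower side. With each cell thinned to 2000 UMIs, Sqle turned to a ratio of 1.41 on 34 UMIs in all. At that depth Fdft1 had a UMI in 3.97% of placebo and 4.36% of E2 cells. Over the alternative ways of processing, the ratio of Fdft1 ranged from 0.429 to 0.977. Cyp51 had 106 CPM in placebo and 68.7 in E2, 1.54-fold lower (1.28 to 1.84). Srebf2, the regulator, was the 1 member short of the fold, with 132 and 93.1 CPM, 1.42-fold lower (1.21 to 1.66).

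The median log2((CPM E2 + 10)/(CPM placebo + 10)) of the 7 genes was -0.73 in cDC2-like cells, beside -0.07 over all genes measured, and 1.34% of those genes lay below the members' median. The added 10 CPM damps the ratio of low genes. Cycling cells, marked by at least 2 of 8 proliferation genes such as Mki67 and Top2a, made up 10.2% of the placebo and 19.4% of the E2 cells of this class. Without cycling cells the 7 genes were again all lower, against 62.7% of genes, and the median was -0.82. The class also drew on different clusters: a cluster led by Cd209a held 90 of the placebo and 258 of the E2 cells, and 1 led by Ctsk and histone genes held 8 and 45. A cluster led by Arg1 and Mmp12 held 20 and 13 of the cells, and 1 led by Lyz1 and Retnla held 1 and 18. Within the Cd209a cluster alone the summed level was 627 CPM in placebo and 377 in E2, all 7 genes were lower, against 60.8% of genes there, and 5 were lower past the fold, against 12.7%.

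**Figure D2:**
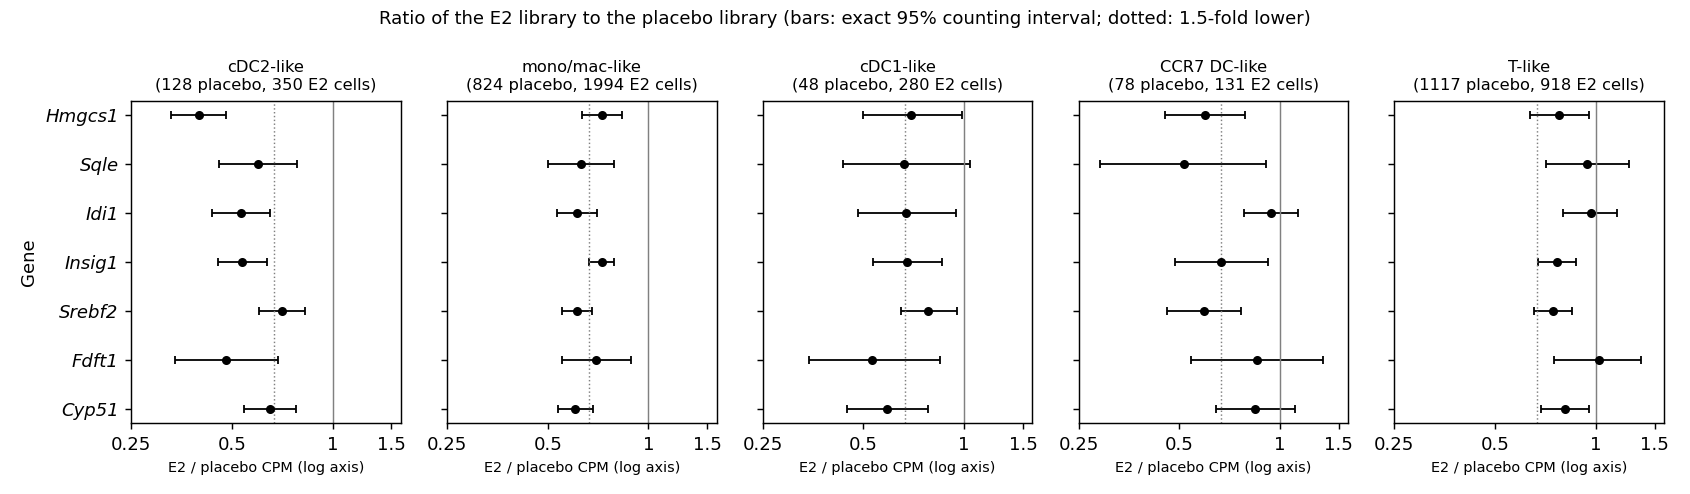
Ratio of the E2 to the placebo level for each gene (horizontal log axis) in 5 classes, with the exact 95% counting interval as a bar, the solid line at no difference and the dotted line at 1.5-fold lower. All 7 points lie left of the solid line in the 3 dendritic classes and in monocyte/macrophage-like cells, while in T-like cells the points for Sqle, Idi1 and Fdft1 sit close to it.

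Monocyte/macrophage-like cells, the largest class of the E2 library with 1994 cells against 824 in placebo, held lower levels of all 7 genes in the E2 library, where 56.8% of genes were lower by any amount. Of the 7, 4 were lower past 1.5-fold, against 8.3% of the 12754 genes measured, and all 7 intervals lay below a ratio of 1. The summed level was 364 CPM in placebo and 241 in E2, 1.51-fold lower (1.44 to 1.58). With its clusters held at their placebo shares of UMIs in both libraries, 0 of the 7 were past the fold.

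Srebf2 had 76.5 CPM in placebo and 46.8 in E2, a ratio of 0.612 (0.551 to 0.680). Cyp51 had 60.5 and 36.6 CPM, a ratio of 0.605 (0.537 to 0.682). Idi1 had 44.9 and 27.5 CPM, a ratio of 0.612 (0.533 to 0.704). A regulator, a middle step and a late step of the pathway thus differed by nearly the same ratio. Sqle, with fewer UMIs, had 16.7 and 10.5 CPM, a ratio of 0.627 (0.50 to 0.790). Fdft1 had 14.8 and 10.4 CPM, a ratio of 0.699 (0.552 to 0.890). Sqle passed the fold and Fdft1 did not, but their intervals overlap. Insig1 had 108 and 78.3 CPM, a ratio of 0.725 (0.665 to 0.790). Hmgcs1 had 42.5 and 30.8 CPM, a ratio of 0.726 (0.633 to 0.835).

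The members' median log2 ratio was -0.42 in this class, beside -0.03 over all genes measured, and 3.36% of genes lay below it. Median depth was alike, at 8938 UMIs per cell in placebo and 9352 in E2. The cycling share was 4.25% in placebo and 6.57% in E2. In the 35 placebo and 131 E2 cycling cells the summed level was 465 and 217 CPM, a ratio of 0.466 (0.395 to 0.551), and in the cells that were not cycling it was 357 and 244 CPM, a ratio of 0.682 (0.649 to 0.717).

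**Figure D3:**
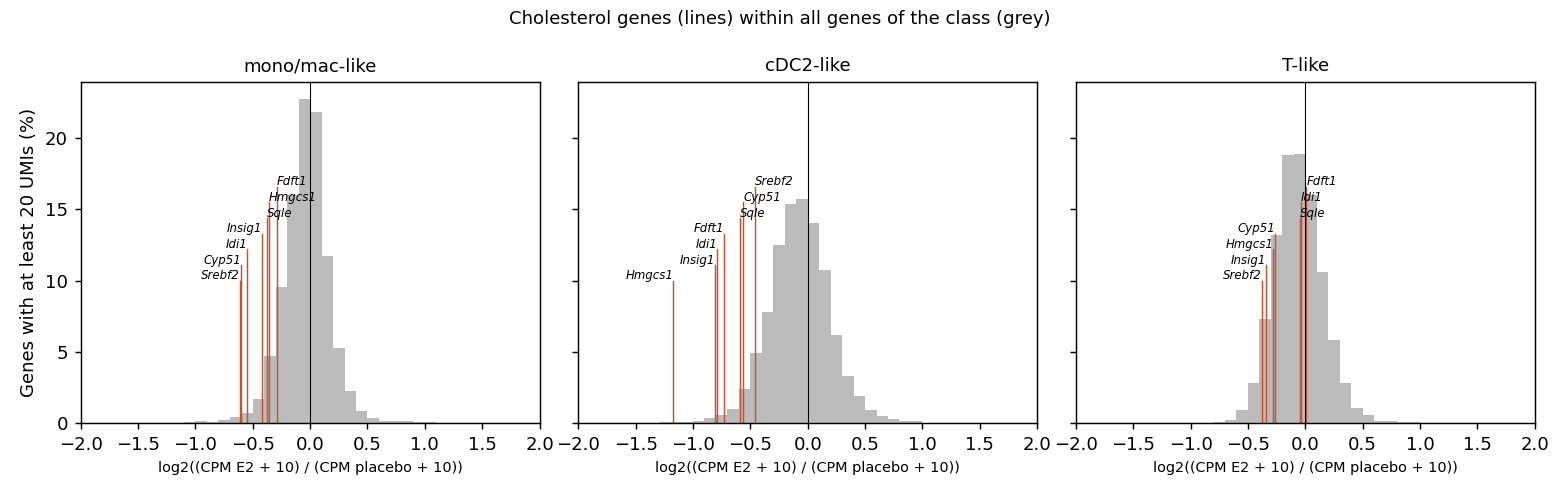
Distribution of log2((CPM E2 + 10)/(CPM placebo + 10)) over all genes with at least 20 UMIs in 3 classes (grey bars, percent of genes per bin of 0.1, within the plotted range), with an orange line at the value of each cholesterol synthesis gene (the heights of the lines only keep the names apart). The members' median was -0.42 in monocyte/macrophage-like, -0.73 in cDC2-like and -0.26 in T-like cells, beside medians of -0.03, -0.07 and -0.07 over all genes.

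Monocytes and macrophages are a mixed class, and its clusters differed in level and in share. Clusters were made without the genes of any cholesterol or lipid list, and 6 had at least 30 gated cells in each library. The summed level was lower in the E2 library in all 6, with an interval below a ratio of 1 in 5. The widest difference was in the cluster led by Apoe and Itgb5 (217 placebo and 544 E2 cells). Its sum was 345 CPM in placebo and 204 in E2, a ratio of 0.592 (0.537 to 0.652), and all 7 genes were lower past the fold, against 11% of genes in that cluster. Hmgcs1 there had 32.7 and 17.5 CPM, a ratio of 0.535 (0.385 to 0.748).

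The cluster led by Chil3 and Vcan, genes of inflammatory monocytes, held 157 placebo and 488 E2 cells and a sum of 365 and 301 CPM, a ratio of 0.825 (0.747 to 0.912). None of the 7 was past the fold there, against 10.6% of genes. Srebf2 (80.5 and 58.4 CPM) and Insig1 (133 and 97.7 CPM) were lower with intervals below 1, while Hmgcs1 (29.9 and 29.0 CPM) and Idi1 (35.3 and 35.5 CPM) were nearly equal. In the Ccl8 and Pf4 cluster of resident-type macrophage genes the sum was the lowest of the 6, at 217 and 166 CPM, a ratio of 0.766 (0.637 to 0.927). In the Lyz1 and Retnla cluster it was 307 and 224 CPM, a ratio of 0.731 (0.613 to 0.874). In the Ace and Treml4 cluster, genes of patrolling monocytes, it was 375 and 304 CPM, a ratio of 0.810 (0.665 to 0.990).

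The cluster led by Arg1 and Mmp12 had the highest sum of the 6 in both libraries. It held 436 CPM (407 to 465) in placebo and 404 CPM (374 to 435) in E2, a ratio of 0.927 (0.837 to 1.03). This cluster was 24% of the gated class in placebo (198 cells) and 6.77% in E2 (135 cells), so the class drew less of its RNA from its richest cluster in the E2 library. With the 6 clusters held at their placebo shares of UMIs in both libraries, which leaves out the 42 placebo and 139 E2 cells of other clusters, the members' median was -0.26 in place of -0.42 and 0 genes were past the fold in place of 4. With the 6 clusters given equal weights, which also raises the small clusters, the median was -0.24 and 1 gene was past the fold, Srebf2 at a ratio of 0.660. Srebf2 was lower in the E2 library in each of the 6 clusters, with ratios from 0.546 to 0.784. Hmgcs1 did not: its ratio was above 1 in 3 clusters with intervals that include 1, and its ratio over the class became 0.972 at the placebo shares and 0.991 at equal weights, against 0.726 as gated.

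**Figure D4:**
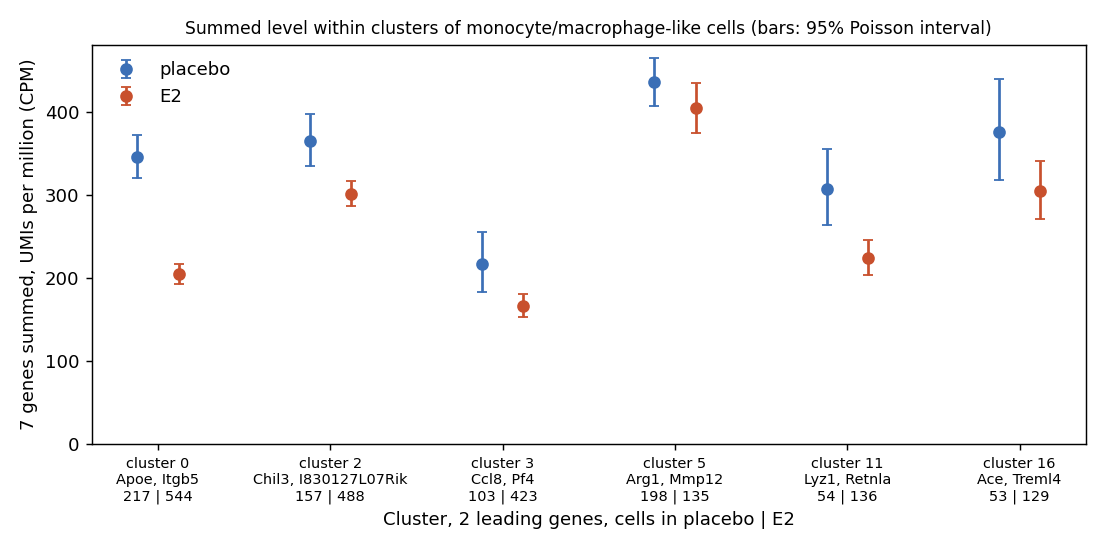
Summed level of the 7 genes in CPM (vertical axis, from 0) in 6 clusters of monocyte/macrophage-like cells, each labelled with its leading genes and its placebo and E2 cell counts, with 95% Poisson intervals. The E2 point is lower in every cluster, from a ratio of 0.592 in cluster 0 to 0.927 in cluster 5, which is the richest in both libraries.

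T-like cells differed less. None of the 7 genes was past 1.5-fold in either direction in the 1117 placebo and 918 E2 cells, against 9.28% of 11675 genes lower and 5.07% higher past the fold. The summed level was 387 CPM in placebo and 314 in E2, 1.23-fold lower (1.16 to 1.32), and the members' median log2 ratio was -0.26, beside -0.07 over all genes, with 16.4% of genes below it. Both regulators were lower with intervals below 1: Srebf2 had 107 and 79.6 CPM, a ratio of 0.746 (0.656 to 0.848), and Insig1 had 96.7 and 74.2 CPM, a ratio of 0.767 (0.671 to 0.876). Hmgcs1 (42.4 and 33.0 CPM) and Cyp51 (61.1 and 49.5 CPM) were lower as well, at ratios of 0.779 (0.635 to 0.952) and 0.809 (0.685 to 0.955). Between the entry and the late step, Idi1 had 43.3 and 41.7 CPM, Fdft1 17.0 and 17.2 CPM and Sqle 19.5 and 18.4 CPM, and all 3 intervals include 1. The ratio of Idi1 was 0.965, and 1.01 when counts were scaled to the median gene.

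The subsets of T-like cells were not alike. Regulatory T-like cells (411 placebo and 352 E2 cells), which restrain immune responses, had a sum of 446 and 332 CPM. Their Insig1 went from 107 to 66.8 CPM, a ratio of 0.622 (0.50 to 0.770), and their Srebf2 from 127 to 81.6 CPM, a ratio of 0.641 (0.526 to 0.779). These were the 2 of 7 genes past the fold there, where 12.4% of genes were lower past it. In CD4 T-like cells (218 and 142) the sum was 319 and 334 CPM, a ratio of 1.05 (0.881 to 1.24), with 2 genes lower and 5 higher, where 59.2% of genes were lower. Past the fold were Fdft1, higher at a ratio of 2.58 (1.07 to 6.62) on 9 and 16 UMIs, where 6.62% of genes were higher past it, and Cyp51, lower at a ratio of 0.645 (0.381 to 1.06), where 14.2% were lower past it. In CD8 T-like cells (141 and 98) it was 232 and 201 CPM, a ratio of 0.864 (0.665 to 1.12).

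Gamma-delta T-like cells were few, 67 in placebo and 68 in E2, and held the lowest ratios of the T subsets. Their sum was 536 CPM in placebo and 246 in E2, a ratio of 0.459 (0.346 to 0.604), and Hmgcs1 had 39 UMIs in placebo and 8 in E2, or 114 and 26.3 CPM. The 5 measured genes were all lower past the fold, where 19.4% of 4988 genes were, and Sqle and Fdft1 fell under the minimum of 20 UMIs. With regulatory, CD4, CD8 and gamma-delta T-like subsets held at their placebo shares of UMIs in both libraries, the T-like median was -0.29 and 0 genes were past the fold. With equal weights, which raise the few gamma-delta T-like cells to the weight of each larger subset, the median was -0.32 and 2 genes were past the fold, Hmgcs1 at 0.539 and Srebf2 at 0.663. Differences between subsets were not tested.

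Cycling T-like cells stood above the others, at 533 CPM in placebo and 359 in E2 against 360 and 300 CPM in T-like cells that were not cycling. Their ratio was 0.673 (0.589 to 0.769), beside 0.832 (0.772 to 0.897) in the latter. The cycling share was 7.16% of placebo and 10.1% of E2 T-like cells.

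The remaining dendritic classes held under 100 cells in the placebo library and are given as values. cDC1-like cells, which cross-present antigen to CD8 T cells, were 48 in placebo and 280 in E2. All 7 genes were lower in E2, where 56.9% of genes were lower by any amount, and the sum was 587 and 401 CPM, 1.46-fold lower (1.31 to 1.62). Fdft1 had 36.7 and 19.5 CPM, a ratio of 0.531 (0.343 to 0.848), and Cyp51 had 91.0 and 53.4 CPM, a ratio of 0.587 (0.447 to 0.780). With each cell thinned to 2000 UMIs, Cyp51 turned to a ratio of 1.72 on 33 UMIs in all. Srebf2 was the mildest of the 7 with 177 and 138 CPM, a ratio of 0.781 (0.646 to 0.95). The cycling share of this class was 14.6% in placebo and 24.6% in E2.

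CCR7 mature dendritic-like cells, which carry antigen to lymph nodes, were 78 in placebo and 131 in E2 and had sums of 755 and 566 CPM, 1.33-fold lower (1.20 to 1.48). All 7 genes were lower, where 60.3% of genes were. Hmgcs1 had 123 and 73.3 CPM, a ratio of 0.597 (0.453 to 0.787), and Srebf2 had 145 and 86.2 CPM, a ratio of 0.593 (0.460 to 0.764). Idi1, the gene that set this class apart by level among the 9 classes, had 219 and 206 CPM, a ratio of 0.941 (0.783 to 1.13). Its level there was above that in cDC2-like cells in both libraries, and its interval includes no difference.

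The low classes gave few UMIs of these genes. Neutrophil-like cells (232 placebo and 526 E2 cells) had 39 and 100 UMIs of the 7 genes in all, and only Insig1 and Srebf2 reached 20 UMIs. Insig1 had 17.7 and 22.1 CPM, a ratio of 1.25 (0.612 to 2.81), and Srebf2 had 23.0 and 13.6 CPM, a ratio of 0.591 (0.289 to 1.26), past the fold with an interval that includes 1 where 19.3% of genes were lower past the fold. In mast-like cells the sum was 206 and 168 CPM, a ratio of 0.815 (0.643 to 1.04), in B-like cells 250 and 188 CPM, a ratio of 0.753 (0.516 to 1.07), and in NK-like cells 129 and 149 CPM, a ratio of 1.16 (0.793 to 1.71). In neutrophil-like cells the sum gave 0.821 (0.562 to 1.22). The interval of the sum includes 1 in all 4 classes, so a difference in it was not detectable at this depth.

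Over all kept cells the 7 genes were lower in the E2 library with ratios from 0.694 to 0.771, where 64% of genes were lower by any amount, and none was past the fold, where 16.9% of genes were lower past it. The sum was 426 and 305 CPM, 1.40-fold lower (1.36 to 1.43). That pooled value mixes classes whose shares differ: monocyte/macrophage-like cells were 24.3% of placebo and 36.3% of E2 cells, and T-like cells 32.9% and 16.7%.

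The share of cells in which any of the 7 genes was seen was also compared at equal depth. With each cell thinned to 2000 UMIs, 65.1% (exact binomial interval 56.1 to 73.4) of placebo and 46.5% (41.1 to 51.9) of E2 cDC2-like cells had a UMI, and 43.3% (39.8 to 46.9) and 32.3% (30.2 to 34.5) of monocyte/macrophage-like cells. In T-like cells it was 45.8% (42.8 to 48.8) and 40.1% (36.8 to 43.5). Single genes could go the other way at that depth: Sqle had a UMI in 3.97% of placebo and 6.98% of E2 cDC2-like cells and Fdft1 in 3.97% and 4.36%, and in cDC1-like cells Cyp51 had one in 4.26% and 8.42% and Idi1 in 6.38% and 9.52%. Neutrophil-like cells, the lowest class, had 9.25% (5.38 to 14.6) and 11% (8.34 to 14.0). No class should lack these genes, so none serves as a measure of background from free RNA, which was not estimated. Without thinning, the shares were 96.9% and 92% in cDC2-like, 75.7% and 70.3% in monocyte/macrophage-like, 67.8% and 61.2% in T-like and 11.2% and 15.2% in neutrophil-like cells, at median depths of 13937 and 13804, 8938 and 9352, 4531 and 4255, and 2390 and 3122 UMIs. Thinning left out 2 and 6 cDC2-like, 55 and 96 monocyte/macrophage-like, 45 and 56 T-like and 59 and 33 neutrophil-like cells.

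Most other enzymes of cholesterol synthesis were also lower in cDC2-like and monocyte/macrophage-like cells, where most genes of any kind were. Of the 15 enzymes outside the 7 members, 12 were lower and 3 higher in cDC2-like cells, where 61.4% of all genes were lower, with 6 lower past the fold, against 12.8% of all genes, and their median log2 ratio was -0.40 beside -0.07 over all genes. Msmo1, which removes methyl groups from the sterol ring, had 80.1 and 47.2 CPM there, a ratio of 0.590 (0.478 to 0.728), and Lss, the lanosterol synthase, had 11.4 and 5.12 CPM. In monocyte/macrophage-like cells 11 of the 15 were lower and 4 higher, where 56.8% of all genes were lower, and 2 were lower past the fold, against 8.3%, with a median of -0.23 beside -0.03. Those 2 were Lss, with 7.34 and 2.76 CPM, a ratio of 0.375 (0.253 to 0.557), and Hsd17b7, with 6.28 and 3.88 CPM. In T-like cells 14 of the 15 were measured, 8 lower and 6 higher, where 62.5% of all genes were lower. Nsdhl there stood at 17.0 and 10.9 CPM, a ratio of 0.645 (0.454 to 0.907).

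Among the 5 SREBP regulators besides Srebf2 and Insig1, all 5 were lower in monocyte/macrophage-like cells, where 56.8% of all genes were. Their median log2 ratio there was -0.06, close to the -0.03 over all genes. None was past the fold, and Srebf1 had 39.5 and 29.4 CPM, a ratio of 0.743 (0.645 to 0.858). In T-like cells all 5 were lower too, where 62.5% of all genes were, and Srebf1, which encodes the SREBP that chiefly drives fatty acid genes, had 51.2 and 32.8 CPM, a ratio of 0.641 (0.526 to 0.778). In cDC2-like cells 3 were lower and 2 higher, near the 61.4% of all genes lower there, with Mbtps1 at 40.9 and 32.7 CPM. The median of the 5 was -0.20 in T-like and -0.12 in cDC2-like cells, beside -0.07 over all genes in each class.

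Fatty acid genes under SREBP1 were lower in 9 of 9 measured cases in cDC2-like, 6 of 8 in monocyte/macrophage-like and 7 of 8 in T-like cells, beside 61.4%, 56.8% and 62.5% of all genes lower in those classes. Their median log2 ratios were -0.23, -0.20 and -0.15. Scd2, a stearoyl-CoA desaturase, had the lowest log2 ratio of this list in each of these 3 classes. It had 132 and 71.6 CPM in cDC2-like cells, a ratio of 0.541 (0.459 to 0.639), and 101 and 50.2 CPM in monocyte/macrophage-like cells, a ratio of 0.497 (0.452 to 0.547). In T-like cells it had 64.0 and 36.5 CPM, a ratio of 0.570 (0.475 to 0.683).

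Genes of uptake and trafficking, and of efflux and storage, were mixed in monocyte/macrophage-like and cDC2-like cells and mostly lower in T-like cells. Of 10 measured uptake and trafficking genes, 7 were lower and 3 higher in monocyte/macrophage-like cells and 5 were lower and 5 higher in cDC2-like cells, beside 56.8% and 61.4% of all genes lower there. In T-like cells 9 of 10 uptake and trafficking genes and 6 of 7 efflux and storage genes were lower, beside 62.5% of all genes, with medians of -0.14 and -0.16. Stard4, a sterol carrier, had 29.1 and 20.9 CPM in monocyte/macrophage-like cells and 48.5 and 28.1 CPM in cDC2-like cells. Lipa, the lysosomal acid lipase that frees cholesterol from esters, was higher in monocyte/macrophage-like cells at 74.9 and 100 CPM, a ratio of 1.34 (1.22 to 1.47). Of the 10 efflux and storage genes 5 were lower and 5 higher in monocyte/macrophage-like cells, with a median near 0. Apoe, the apolipoprotein that carries lipid out of macrophages, had 6683 and 12752 CPM, a ratio of 1.91 (1.89 to 1.93), and Soat1, which esterifies cholesterol for storage, had 185 and 146 CPM. Of the non-sterol branches of the mevalonate pathway, 4 of 7 genes were lower in monocyte/macrophage-like, 3 of 6 in cDC2-like and 2 of 7 in T-like cells, beside 56.8%, 61.4% and 62.5% of all genes, and none was past the fold.

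Across the 18 class and library values, the genes outside the 7 whose levels were most like the members' mean pattern were Fdps (Pearson r 0.97), Ptprs (0.96), Arhgdia, Anxa7 and Vac14 (each 0.92), Syngr2 (0.91), Elp5 (0.89) and Crip1, Nmt1 and Avpi1 (each 0.88), out of 9074 genes ranked. The 18 points come from 9 classes in the same 2 libraries and are not independent, so r is a description. Fdps, the farnesyl diphosphate synthase, is the pathway enzyme between Idi1 and Fdft1, and its level ran from 1.13 to 127 CPM. Among the members, pairs ranged from 0.64, for Insig1 with Idi1 and with Fdft1, to 0.92, for Fdft1 with Cyp51.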

How the data were processed

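The deposited values are raw counts of UMIs per gene and barcode, made by the authors with Cell Ranger 3.1.0 on mm10, per the submitters' processing notes, with no normalization. Gene coordinates (1-based) come from GENCODE annotation of GRCm38 and promoters from RefSeq tables.

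Barcodes under 200 genes were removed (15 placebo, 26 E2), then the highest Scrublet scores at 0.8% per 1000 barcodes (97 and 266), since the automatic threshold marked 0.086% and 1.49%. A cell entered the class with the highest fraction of its markers detected, needing at least 2 markers and a lead of 0.2 over the next class. Otherwise it stayed ungated (528 and 723 cells). Clusters (Leiden, resolution 1, 2000 variable genes, 30 components, 15 neighbours) left out the lipid lists. UMIs were summed per class and library, ratios carry exact conditional-binomial 95% intervals, and medians use log2 with 10 CPM added. The interval code was run on simulated Poisson counts. These follow the model of the intervals and hold no variation between cells, so they cannot show how the intervals fare under it. The named genes were the 7 members, up to 3 genes per further list and class with the largest absolute log2 ratio, and the 10 most alike in pattern, and some genes the rule names are not reported here. Msmo1 and Lss in cDC2-like cells, Hsd17b7 in monocyte/macrophage-like cells and the 8 letters of the sterol element core (after matches of a longer form) were chosen with their values seen. The members and lists were chosen with earlier results of these data known. Alternatives covered clusters in place of gates, gate strictness, doublets, depth, scaling, cell weights, cycling cells, pseudocount and UMI minimum, and 5 more were chosen after seeing the data (barcodes in both libraries left out, and clusters or T subsets held at placebo UMI shares or at equal weights). Python 3.11.15, scanpy 1.11.5, leidenalg 0.10.2, igraph 0.11.9, numpy 2.4.6, scipy 1.17.1, pandas 2.3.3 and matplotlib 3.10.9 were used.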

Additional observations from a re-analysis of the deposited data

Results flagged for a closer look

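Cyp51 in NK-like cells went the other way from T-like, monocyte/macrophage-like, cDC1-like and cDC2-like cells. It had 1 UMI in the 47 placebo cells and 21 in the 86 E2 cells, a ratio of 8.93 with a counting interval of 1.44 to 369, while its ratios in those 4 classes were between 0.587 and 0.809. The difference between the classes was not tested. With cells classed by named clusters instead of gates, the NK-like ratio was 1.08.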

How the results depend on the processing

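The median log2 ratio of the 7 genes stayed below 0 under every alternative in T-like, monocyte/macrophage-like, cDC2-like, cDC1-like and CCR7 mature dendritic-like cells. Over all classes, 112 of 117 medians and 485 of 512 single-gene ratios stayed within the counting interval of the reported value and did not reverse a gene past the fold. In cDC2-like cells the median was -0.39 with 50 CPM added. In monocyte/macrophage-like cells it was -0.63 with 1 CPM added, -0.29 with 50, -0.26 with clusters at placebo shares (0 genes past the fold in place of 4) and -0.24 with clusters weighted equally (1 gene). T subsets weighted equally put 2 genes past it in place of 0, against 0 at placebo shares, and 1 more marker in the gates put 0 neutrophil-like genes past it in place of 1. Thinned to 2000 UMIs per cell, the ratio of Cyp51 in cDC1-like cells was 1.72 (33 UMIs in all). That of Sqle in cDC2-like cells was 1.41 (34 UMIs), and with named clusters that of Idi1 in B-like cells was 1.02. The ratio of Fdft1 in cDC2-like cells stayed below 1 but ranged from 0.429 to 0.977. Summed levels with every cell weighted alike were 367 CPM in placebo T-like, 348 in placebo monocyte/macrophage-like, and 724 and 392 in placebo and E2 cDC2-like cells. Without cycling cells placebo T-like cells had 360 CPM, and with named clusters monocyte/macrophage-like cells had 394 and 263 CPM. The cause of these shifts was not tested. No paired analysis was possible because each group holds 1 library. Leaving out a replicate was not possible either. Few UMIs of Fdft1 and Sqle, and of classes under 100 cells, widen their intervals.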

Other observations

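Cells that entered no class also held lower levels in the E2 library, with a sum of 516 CPM in 528 placebo cells and 356 CPM in 723 E2 cells, and 55 and 58 of them carried a barcode found in both libraries. In the 13 placebo and 68 E2 cycling cDC2-like cells, 5 of the 7 genes were lower and 2 higher, against 55.1% of genes lower, with a median log2 ratio of -0.35.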
